A study of Sus scrofa with 30 samples.

Results

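The genes described here are 56 components of growth factor, TGF-beta and Wnt signalling measured in pig teats. They were chosen by symbol alone: every gene with a single-symbol probe set whose name starts with FGF, IGF, TGFB, BMP, SMAD, INHB, ACVR, PDGF, VEGF, EGF, WNT, FZD or SFRP, or is LRP5 or LRP6. They are 56 of the 6765 genes with a single-symbol probe set on the array, and 106 probe sets carry their names. Where a gene had several probe sets, the one with the highest average level on the 30 arrays was taken. By role they are 21 ligands (counted by family name, so FGF12 and FGF13, which act inside the cell, are among them), 19 receptors, 8 binding proteins or secreted antagonists, 3 SMAD signal transducers and 5 genes that share only a name or a domain with these families. No LRP5 or PDGF ligand was among them, and WNT10B was the only Wnt ligand.

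The samples came from 10 peripubertal pigs of commercial dam lines, slaughtered at a mean end weight of 110 kg; no animal carried a transgene or received a treatment according to the labels. An inverted teat is a teat whose tip is drawn inwards, and it was recognised by looking at and feeling the teat. Epithelial tissue and mesenchymal tissue were taken from a normal teat of 5 non-affected animals, which had no inverted teat, and from a normal and an inverted teat of 5 affected animals. This gave 6 groups of 5 arrays. Among the affected and among the non-affected animals, 3 were Large White x German Landrace, 1 was German Landrace and 1 was Pietrain x (Large White x German Landrace). The animal is the replicate, and the animal number shows which arrays came from the same pig. Levels are deposited log2 values, so a difference of 1 stands for a 2-fold change if the base, which no label states, is 2. Levels of different probe sets are not compared, because probes bind with different strength.

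Fibroblast growth factors (FGF), insulin-like growth factors (IGF), epidermal growth factor (EGF), platelet-derived (PDGF) and vascular endothelial (VEGF) growth factors act through receptor tyrosine kinases. TGF-beta, activins and bone morphogenetic proteins (BMP) assemble type I and type II serine kinase receptors that activate SMAD proteins, while Wnt proteins bind Frizzled receptors (FZD) with LRP5 or LRP6. In the skin and the mammary gland these signals pass between the epithelium and the mesenchyme below it, and BMP and Wnt signals take part in the forming of the embryonic mammary bud and nipple.

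The tissue labels were checked against marker lists. The mean of the luminal keratins KRT8, KRT18 and KRT19 lay between 9.27 and 10.66 on 14 epithelial arrays and at 6.75 on that of the inverted teat of animal 1103. On mesenchymal arrays it ran from 2.38 to 11.14, and it was above 9 in the normal teats of animals 950, 957, 963 and 964 and in the inverted teats of animals 963, 964 and 1059, so RNA of luminal epithelium was also present in those samples. Fibroblast markers were as high in epithelial as in mesenchymal normal teats: of 10 tested, 3 were higher in the epithelial samples and 0 in the mesenchymal ones. All 10 adipocyte markers and all 12 skeletal muscle markers tested were higher in mesenchymal tissue of normal teats. In inverted teats all 10 adipocyte markers were again higher in mesenchymal tissue, whereas 0 of 12 skeletal muscle markers and 0 of 3 luminal keratins passed. The tissue differences below were measured beside these differences in cell types, and in tissue pieces a change of cell number cannot be told apart from a change of RNA per cell. The epithelial array of the inverted teat of animal 1103 had the highest smooth muscle mean of all epithelial arrays, 10.82 against 8.81 to 9.74 on the other 14.

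Most probe sets lie above the 30th percentile of their array by definition, so passing that mark does not show that a gene is expressed. A level above it was found on all 30 arrays for 38 members and on part of the arrays for 11. The other 7 reached it on 3 arrays or fewer: the ligands BMP15, FGF1, FGF9 and FGF18, the intracellular FGF12, the receptor BMPR1B and the IGF carrier subunit IGFALS. They were not tested between tissues, which leaves 49 members; a level under that mark is not evidence that a gene is silent.

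Levels by group are given for members picked by the mean of their own probe set, which is no measure of abundance between genes. IGF2 is a fetal and postnatal growth factor. Its group means lay between 11.10 ± 0.59 and 11.67 ± 0.25 (SD, n = 5), the lowest and the highest being the mesenchyme of non-affected pigs and the epithelium of normal teats of affected pigs. TGFB1, a regulator of matrix and growth, ranged from 7.2 ± 0.59 in epithelial to 7.64 ± 0.57 in mesenchymal normal teats. Among the receptors, PDGFRB, which marks fibroblasts and pericytes, had means from 10.61 ± 0.34 to 10.88 ± 0.15. EGFR, the receptor of EGF, ranged from 8.91 ± 0.27 to 9.17 ± 0.27, FGFR1 from 8.99 ± 0.41 to 9.29 ± 0.21, and ACVR1, a type I receptor of BMPs and activins, from 7.35 ± 0.41 to 7.84 ± 0.24. In the comparison of normal teats given next, IGF2, TGFB1, PDGFRB, EGFR, FGFR1 and ACVR1 did not pass between the tissues. After quantile normalization IGF2, PDGFRB, EGFR and ACVR1 passed as higher in epithelial tissue. VEGFA, VEGFB, TGFB3 and FZD4, picked in the same way, differed between the tissues and are described with them.

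The first comparison asked which members differ between epithelial and mesenchymal tissue of normal teats, 10 arrays each, with affection status as a covariate. A total of 14 of 49 members passed an adjusted p of 0.05, 5 of them with the higher level in epithelial and 9 in mesenchymal tissue. The share, 28.6%, is near that of all probe sets, of which 33.5% passed, 12.9% higher in epithelial and 20.6% in mesenchymal tissue. Without adjustment 22 members had a p under 0.05, 44.9% against 44.2% of all probe sets. The median difference, epithelial minus mesenchymal, was 0.06 over the members and -0.06 over all 18286 probe sets. No member separated the tissues completely: in all 49 the ranges of the 10 epithelial and 10 mesenchymal arrays overlapped, while 0.153% and 1.96% of all probe sets were free of overlap with the higher values in epithelial and mesenchymal tissue. With quantile normalization the split was 13 higher in epithelial and 7 in mesenchymal tissue, and with arrays centred on their median it was 8 and 8, so the balance of directions rests on the scaling. With the animal as a random replicate block, which compares the tissues within a pig, 22 of 49 members passed, 11 in each direction. In that fit 8124 of the 18286 probe sets passed, so the rise in calls was seen over the whole array.

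**Figure D1:**
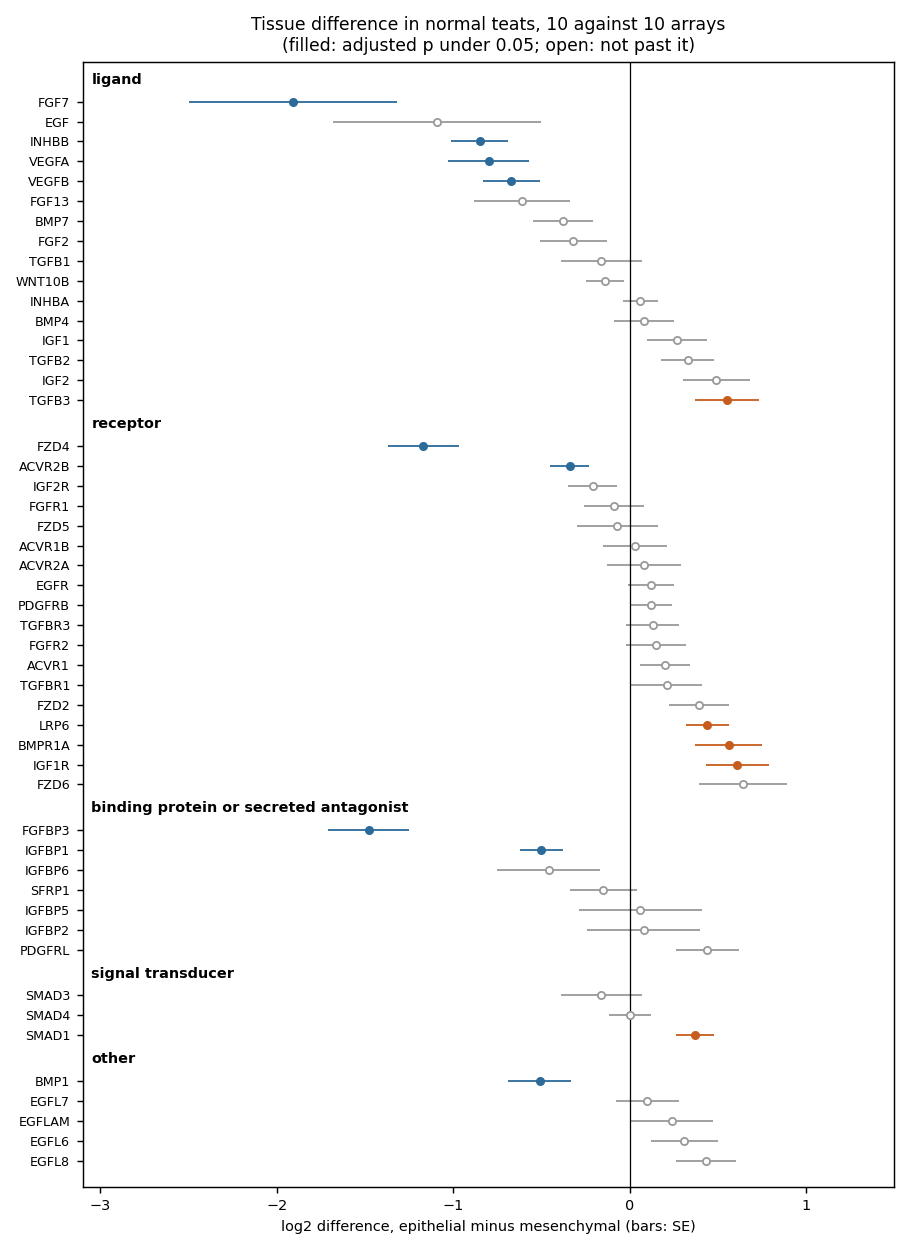
Log2 difference between epithelial and mesenchymal tissue of normal teats for the 49 members tested, by role (points: estimate from 10 against 10 arrays, bars: SE; filled points passed an adjusted p of 0.05, orange higher in epithelial and blue higher in mesenchymal tissue). FGF7, FGFBP3 and FZD4 lie farthest to the left, from -1.91 to -1.17, and no called member lies above 0.61.

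Of the 16 ligands tested, 1 had its higher level in epithelial tissue and 4 had it in mesenchymal tissue. FGF7, also called keratinocyte growth factor, is made by mesenchymal cells and acts on epithelial cells. Its epithelial levels were 0.95, 3.80 and 4.48 (lowest, median and highest of 10) and its mesenchymal levels 2.68, 5.98 and 6.86. The difference was -1.91 ± 0.59 (SE; limma's adjusted p = 0.017), with 9 of 10 pigs in that direction. FGF7 exceeded the array's 30th percentile on 0 epithelial and 8 mesenchymal arrays of normal teats, so it entered the test through the tissue where it is high, its epithelial level is not above that mark and no fold is given. It was not tested under a stricter filter. Without animal 1058 its adjusted p was 0.052.

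INHBB encodes the subunit of activin B and inhibin B. It lay at 3.93, 4.39 and 5.04 in epithelial tissue and at 4.79, 5.4 and 5.69 in mesenchymal tissue, a difference of -0.85 ± 0.16 (adjusted p = 0.00072). The mesenchymal value was the higher one in 10 of 10 pigs, although the ranges overlapped. INHBB exceeded the 30th percentile on 4 of the 10 epithelial and on all 10 mesenchymal arrays. Like FGF7 it therefore entered the test through the tissue where it is high. Most of its epithelial levels were not above that mark, so no fold is given.

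Both VEGF ligands measured were higher in mesenchymal tissue in 10 of 10 pigs. VEGFA, the main signal for the growth of blood vessels, had epithelial levels of 7.43, 7.62 and 8.44 and mesenchymal levels of 7.74, 8.31 and 9.59, and differed by -0.80 ± 0.23 (adjusted p = 0.012). A further VEGFA probe set with nearly the same mean differed by -0.15 (adjusted p = 0.32), so the size for VEGFA depends on the probe set. Without the 4 animals with keratin-rich mesenchyme VEGFA no longer passed (adjusted p = 0.062). VEGFB, which binds the receptor FLT1, lay at 8.75, 9.16 and 9.66 in epithelial and at 9.04, 9.81 and 10.63 in mesenchymal tissue. Its difference was -0.67 ± 0.16 (adjusted p = 0.0044), and it fell short of the threshold after quantile normalization (-0.36, adjusted p = 0.072).

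TGFB3 was the ligand called as higher in epithelial tissue. It encodes a TGF-beta isoform and lay at 7.35, 7.56 and 8.21 against 6.24, 7.05 and 7.69 in mesenchymal tissue. The difference was 0.55 ± 0.18 (adjusted p = 0.023), positive in 9 of 10 pigs; without animal 1109 its adjusted p was 0.059. The other two isoforms did not pass: TGFB1 differed by -0.16 ± 0.23 and TGFB2 by 0.33 ± 0.15. BMP4, a ligand of BMP receptors, differed by 0.08 ± 0.17, and WNT10B, an early marker of the mammary line, by -0.14 ± 0.11.

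Among the 18 receptors tested, 3 were called with a higher epithelial and 2 with a higher mesenchymal level. FZD4, a Frizzled receptor that also binds norrin, lay at 8.79, 9.17 and 9.98 in epithelial and at 9.81, 10.26 and 11.28 in mesenchymal tissue. Its difference was -1.17 ± 0.20 (adjusted p = 0.00032), 2.24-fold, in 9 of 10 pigs, and its other probe set gave -1.12. ACVR2B, a type II receptor of activins and myostatin, differed by -0.34 ± 0.11 (adjusted p = 0.023), and it no longer passed when animal 957, 1040, 1059 or 1109 was left out, with an adjusted p of at most 0.073, nor with arrays centred on their median (adjusted p = 0.06). The remaining Frizzled receptors did not pass: FZD5 differed by -0.07 ± 0.23, FZD2 by 0.39 ± 0.17 and FZD6 by 0.64 ± 0.25 (adjusted p = 0.83, 0.085 and 0.052).

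The receptors that were higher in epithelial tissue were IGF1R, BMPR1A and LRP6. IGF1R, which binds IGF1 and IGF2, lay at 6.36, 7.10 and 7.44 in epithelial and at 5.54, 6.48 and 6.99 in mesenchymal tissue (0.61 ± 0.18, adjusted p = 0.013, 9 of 10 pigs). The other IGF1R probe set differed by 0.27, so the size for IGF1R depends on the probe set. BMPR1A, a type I BMP receptor, lay at 6.29, 6.88 and 7.21 against 5.36, 6.21 and 7.25 (0.56 ± 0.19, adjusted p = 0.029, 8 of 10 pigs). Its highest value of all came from a mesenchymal array, that of animal 950. BMPR1A did not pass when animal 1040, 1059, 1103 or 1109 was left out, with an adjusted p of up to 0.093. LRP6, the co-receptor of Wnt signalling, lay at 6.91, 7.38 and 7.86 against 6.61, 6.94 and 7.70 (0.44 ± 0.12, adjusted p = 0.0095, 9 of 10 pigs), and its other probe set differed by 0.54. PDGFRB, FGFR1 and EGFR, receptors with a high mean level, differed by 0.12 ± 0.12, -0.09 ± 0.17 and 0.12 ± 0.13 and did not pass.

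Among the 7 binding proteins and antagonists tested, FGFBP3 and IGFBP1 were higher in mesenchymal tissue. FGFBP3, a secreted carrier of FGFs, lay at 4.59, 4.80 and 5.79 in epithelial and at 5.41, 6.51 and 7.82 in mesenchymal tissue. The difference of -1.48 ± 0.23 (adjusted p = 0.00011), 2.79-fold, held in 10 of 10 pigs and had the smallest p of the members. IGFBP1, an IGF carrier known mainly from the liver, differed by -0.50 ± 0.12 (adjusted p = 0.0041). The other IGF carriers IGFBP2, IGFBP5 and IGFBP6 differed by 0.08 ± 0.32, 0.06 ± 0.35 and -0.46 ± 0.29, and the Wnt antagonist SFRP1 by -0.15 ± 0.19; none of these passed. Of the transducers, SMAD1, which carries BMP signals, was higher in epithelial tissue (0.37 ± 0.11, adjusted p = 0.013), whereas SMAD3 and SMAD4 differed by -0.16 ± 0.23 and 0.00 ± 0.12. BMP1, in spite of its name a protease that trims procollagen, was higher in mesenchymal tissue (-0.51 ± 0.18, adjusted p = 0.032). That call was lost after quantile normalization (adjusted p = 0.092), without the 4 animals with keratin-rich mesenchyme (adjusted p = 0.062) and without animal 957, 1040, 1103 or 1109 (adjusted p up to 0.081).

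**Figure D2:**
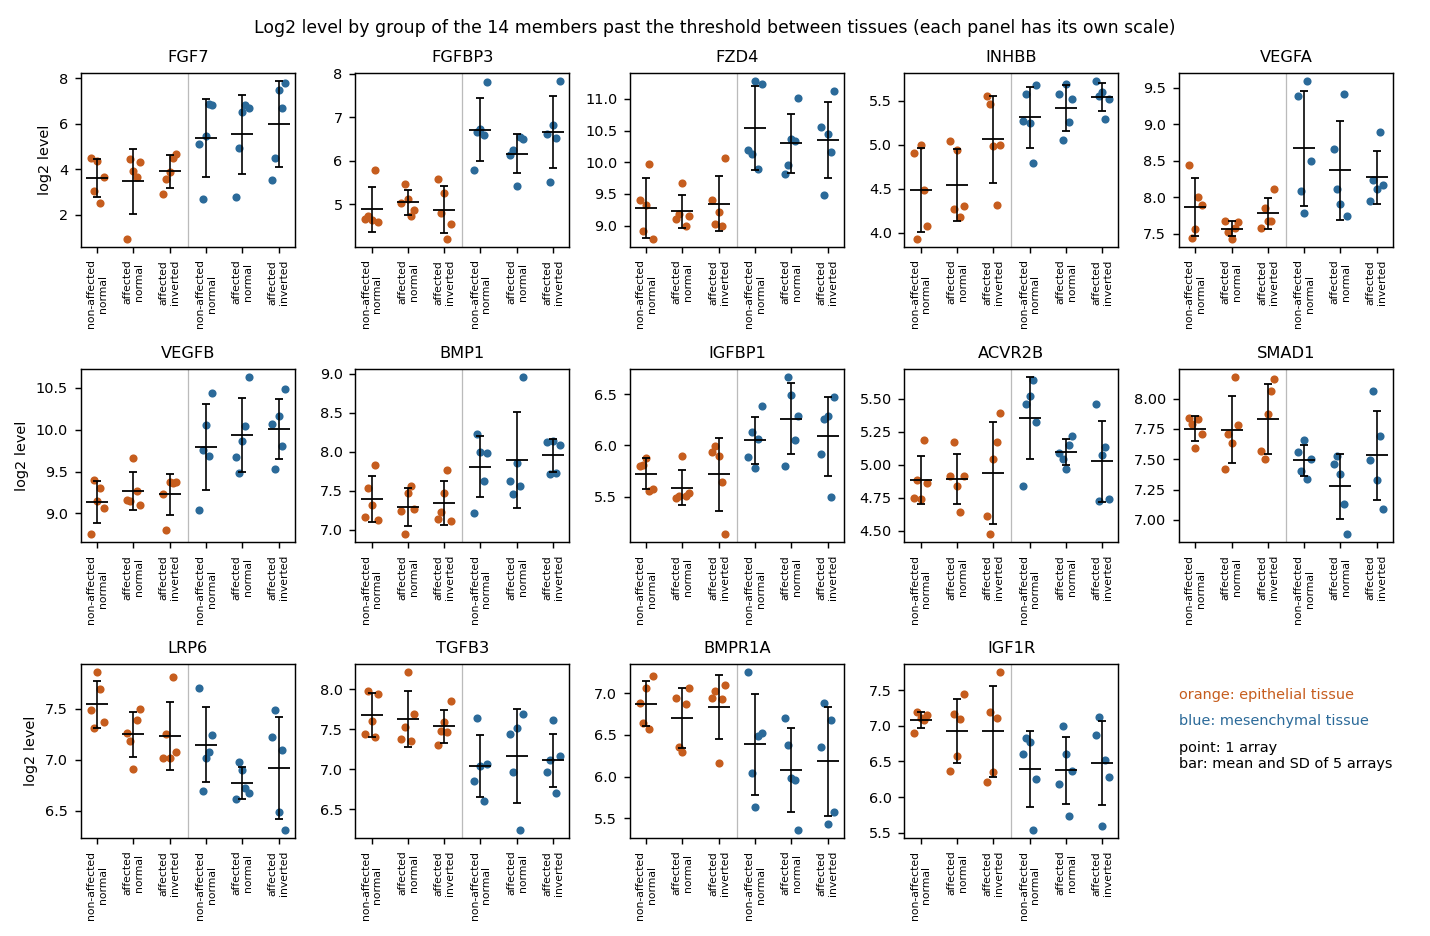
Log2 level on each array of the 14 members that passed between the tissues, in the 6 groups (points: arrays, bars: mean and SD of 5; orange epithelial, blue mesenchymal; each panel has its own scale). The mesenchymal groups sit higher from FGF7 to ACVR2B and the epithelial groups from SMAD1 to IGF1R, with overlapping arrays in every panel.

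The fit with the animal as a random replicate block added 8 members to those 14, and the fit with it as a fixed term added 7. Calls over all probe sets rose in these fits too, from 6122 to 8124 and 7805. With the animal as a random replicate block, EGFL8 (0.43 ± 0.15, adjusted p = 0.024), FZD2 (0.39 ± 0.14, 0.024), FZD6 (0.64 ± 0.21, 0.017), IGF2 (0.49 ± 0.16, 0.015), PDGFRL (0.44 ± 0.15, 0.024) and TGFB2 (0.33 ± 0.13, 0.043) also passed as higher in epithelial tissue, the second value being the adjusted p in each case. BMP7 (-0.38 ± 0.15, adjusted p = 0.038) and FGF13 (-0.61 ± 0.22, adjusted p = 0.029), an intracellular relative of the FGFs, passed as higher in mesenchymal tissue. With the fixed term EGFL8 and TGFB2 did not pass (adjusted p = 0.057 and 0.06), and IGFBP6 did (-0.46 ± 0.15, adjusted p = 0.026). IGF2 was close to the threshold without the block (adjusted p = 0.051). It has 13 probe sets on the array, and they did not tell the same story: 6 with means of 9.71 to 11.42 differed by 0.49 to 0.72, 4 of them past the threshold, whereas the 6 tested of 7 with means of 4.01 to 5.64 differed by -1.0 to 0.06, 1 of them past the threshold with the opposite sign. In EGFL8, EGFLAM, EGFR, PDGFRB, SFRP1 and TGFB1 the only further probe set tested had the opposite sign; none of these genes passed in the fit without the block.

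The other genes of these pathways were taken from lists. There were 12 tested in the TGF-beta and BMP pathway, of which 1 passed, 9 in the Wnt pathway, of which 2 passed, and 18 further growth factors, receptors and their partners, of which 5 passed, beside the 33.5% of all probe sets. ID4, a target of BMP signals, was higher in epithelial tissue by 0.65 ± 0.21 (adjusted p = 0.022). DKK2, a secreted Wnt antagonist, and LEF1, a nuclear partner of beta-catenin, were higher there by 1.09 ± 0.30 and 0.59 ± 0.22 (adjusted p = 0.0099 and 0.049). The growth hormone receptor GHR and the receptor adapter GRB10 were higher in mesenchymal tissue, at -1.47 ± 0.21 and -1.25 ± 0.20 (adjusted p = 6.9e-05 and 0.00015). PAPPA, a protease that frees IGFs from a carrier, was higher in epithelial tissue (0.45 ± 0.15, adjusted p = 0.031). HBEGF and INSR, chosen after their values were seen to complete the count of 5, differed by -0.79 ± 0.21 and -0.42 ± 0.12 (adjusted p = 0.0071 and 0.011), higher in mesenchymal tissue. In inverted teats GHR (-1.42 ± 0.30, adjusted p = 0.018) and GRB10 (-0.91 ± 0.20, adjusted p = 0.02) passed and no other gene of the 3 lists did, and none passed in the teat comparisons.

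Some members had their extreme levels on arrays with extreme marker levels; the examples were chosen after their values were seen. On the 20 arrays of normal teats the adipocyte mean lay between 7.34 and 9.93 in epithelial and between 9.76 and 11.48 in mesenchymal tissue, with no marker at 0. FZD4 was at 11.28, 11.23 and 11.01 in the mesenchyme of animals 1040, 1109 and 1103, where the adipocyte mean was 11.03, 11.48 and 11.17, and at 9.81 and 9.96 in animals 963 and 964, where it was 10.07 and 9.76. Among epithelial normal teats the highest FZD4 levels, 9.98 and 9.68, were those of animals 1058 and 1037, which also had the highest adipocyte means, 9.93 and 9.92. FGFBP3 was at 7.82 and 7.83 on the arrays with the highest adipocyte means of all, 11.48 in the normal teat of animal 1109 and 11.47 in the inverted teat of animal 1103. The mesenchyme of animal 1037, with adipocyte means of 11.09 and 11.01 in its normal and inverted teat, had FZD4 at 10.37 and 10.44 and was no such case. The highest epithelial FZD4 level of all, 10.06 in the inverted teat of animal 1103, lay on an array with an adipocyte mean of 8.12 and the highest epithelial endothelial marker mean, 9.28. High FZD4 therefore did not always come with high adipocyte markers, and the part of fat tissue in the difference was not tested.

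EGF, the ligand of EGFR, did not pass between tissues (-1.09 ± 0.59, adjusted p = 0.16), but its mesenchymal levels were widely spread. They were 7.17, 5.35, 4.42, 9.30 and 6.01 in the normal teats of the non-affected animals 950, 957, 1040, 1058 and 1109, and 7.68, 5.26, 5.78, 8.86 and 3.94 in those of the affected animals 963, 964, 1037, 1059 and 1103. The skeletal muscle mean of 12 markers on the same arrays was 10.97, 9.38, 2.56, 11.89 and 9.97, and 11.36, 10.53, 9.08, 12.25 and 8.82. The highest EGF levels thus came with the highest muscle means, in animals 1058 and 1059. In the inverted teats EGF was 8.38 in animal 1059 (muscle mean 11.71) and 4.08 in animal 963, whose muscle mean fell from 11.36 in the normal to 3.11 in the inverted teat. On epithelial arrays the muscle mean reached 9.01 in animal 963 with EGF at 5.27, and EGF was highest, at 7.33, in animal 950 with a muscle mean of 6.92. VEGFA was highest on the mesenchymal arrays of animals 1058, 1059 and 950, at 9.59, 9.41 and 9.38. All 12 muscle markers were above 0 on all mesenchymal arrays except TNNT3 and TNNI2, listed at 0 on 2 arrays and 1 array. The part of muscle in these levels was not tested.

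In the mesenchyme of normal teats FGF7 was at 5.10, 2.68, 2.77 and 4.93 in animals 950, 957, 963 and 964, where the keratin mean was above 9, and at 6.50, 5.46, 6.86, 6.82, 6.71 and 6.81 in animals 1037, 1040, 1058, 1059, 1103 and 1109. Inverted teats of other pigs went against this: FGF7 was at 6.68 in animal 1059 with a keratin mean of 9.65, and at 7.77, its highest level, in animal 1103 with a keratin mean of 8.76. The mean of 7 milk gene markers divided the mesenchymal arrays of both teat forms in the same way as FGF7. It lay between 7.36 and 10.2 on the 6 arrays of animals 950, 957, 963 and 964, with FGF7 at 2.68 to 5.10, and between 3.42 and 5.18 on the other 9, with FGF7 at 5.46 to 7.77. On epithelial arrays FGF7 was at most 4.69 whatever the milk gene mean. Without the first 4 animals the tissue difference of FGF7 was -2.77 ± 0.31. These animals had its lowest mesenchymal levels in normal teats, so leaving them out raises the mesenchymal mean by itself, and no p is given. IGF1R showed no such division. It was lowest, at 5.54, 5.74 and 5.59, on mesenchymal arrays with keratin means of 2.63, 5.78 and 5.19 (the normal teats of animals 1058 and 1059 and the inverted teat of 1037), but it was at 6.36 in the normal teat of animal 1103 with the lowest keratin mean, 2.38, and at 6.19 in that of animal 963 with a keratin mean of 10.61. Without the same 4 animals its tissue difference was 0.86 ± 0.22. The part of luminal or milk-producing epithelium in these levels was not tested.

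**Figure D3:**
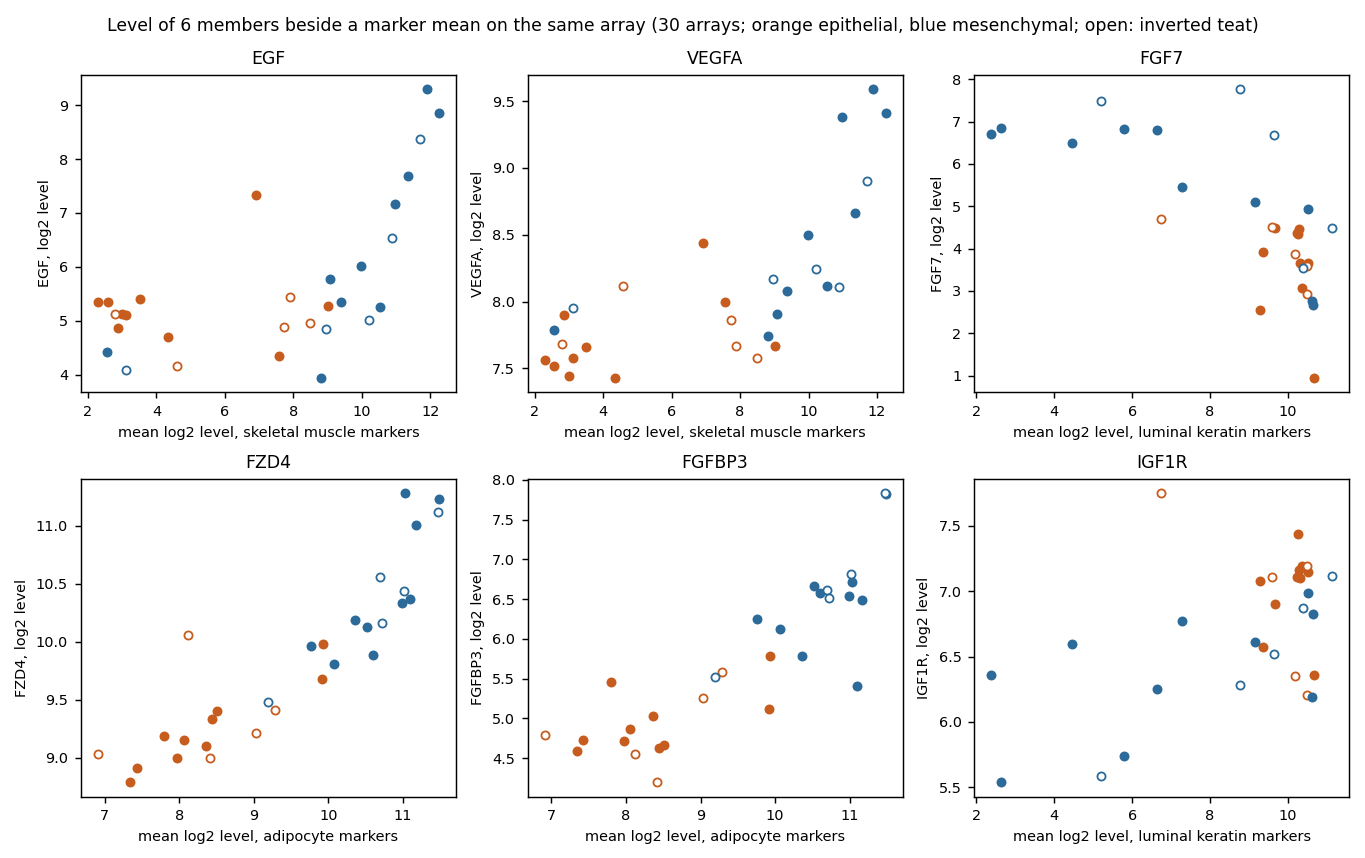
Log2 level of 6 members against the mean log2 level of a marker list on the same array (30 arrays; orange epithelial, blue mesenchymal; open points: inverted teats). EGF reaches 9.30 where the muscle mean is above 11, the FZD4 levels above 11 lie where the adipocyte mean is above 11, and FGF7 above 6 occurs on mesenchymal arrays only.

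The tissue comparison in inverted teats used 5 against 5 arrays of the affected animals, pigs that also entered the comparison in normal teats. Calls leaned towards mesenchymal tissue: 12.4% of all probe sets passed, 0.848% higher in epithelial and 11.5% in mesenchymal tissue, with a median difference of -0.12 that quantile normalization moved to 0.01; 30.3% had an unadjusted p under 0.05. Of 47 members tested 4 passed, all higher in mesenchymal tissue: FGFBP3, VEGFB, BMP1 and FZD4. FGFBP3 was at 5.58, 4.79, 5.26, 4.20 and 4.55 in the epithelium and at 6.62, 5.52, 6.81, 6.52 and 7.83 in the mesenchyme of animals 963, 964, 1037, 1059 and 1103, which overlap only through animal 964. It differed by -1.78 ± 0.39 (adjusted p = 0.02), and it exceeded the 30th percentile on 3 of the 5 epithelial arrays.

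VEGFB was at 9.23, 8.80, 9.37, 9.36 and 9.38 against 10.07, 9.53, 10.16, 9.80 and 10.48 in the same order, and its groups did not overlap (-0.78 ± 0.20, adjusted p = 0.029). FZD4 differed by -1.01 ± 0.30 (adjusted p = 0.049) and BMP1 by -0.61 ± 0.17 (adjusted p = 0.04). Of the members called in normal teats, VEGFA (-0.49 ± 0.19), INHBB (-0.48 ± 0.22), TGFB3 (0.42 ± 0.18) and BMPR1A (0.65 ± 0.30) kept their sign without passing (adjusted p = 0.11, 0.17, 0.14 and 0.18). Leaving out animal 963, 964, 1037, 1059 or 1103 left 1, 3, 0, 0 and 0 of the 4 calls, and quantile normalization left 0. The 2115 calls over all probe sets fell as well, to 1408, 1490, 1, 1 and 1, and to 2 after quantile normalization. Without each animal the difference lay between -2.05 and -1.41 for FGFBP3 and between -0.87 and -0.70 for VEGFB. It lay between -1.15 and -0.96 for FZD4 and between -0.77 and -0.52 for BMP1. With the animal as a random replicate block 7 members passed, and 3683 of all 17108 probe sets did. BMP7 (-0.56 ± 0.15, adjusted p = 0.025), IGFBP6 (-1.13 ± 0.31, adjusted p = 0.025) and WNT10B (-0.45 ± 0.14, adjusted p = 0.045) were the members added. With the animal as a fixed term 5 passed: BMP1 was lost (adjusted p = 0.062), WNT10B did not pass (adjusted p = 0.085), and BMP7 and IGFBP6 were added (adjusted p = 0.045 and 0.026). FGF7 was not tested there; it was at 2.93 to 4.69 in the epithelium and at 3.55 to 7.77 in the mesenchyme, higher in the mesenchyme of 5 of 5 animals. No member was called in the opposite direction in inverted and normal teats, but whether the tissue difference itself changes with the teat is the interaction given further on.

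The teat comparisons asked which members go with the inverted form. In each tissue, there were 3 comparisons: the inverted with the normal teats of the affected animals, the normal teats of affected with those of non-affected pigs, and the inverted teats with the teats of non-affected pigs. These share arrays and are not independent. The fits have no term for the animal, so the normal and inverted teat of a pig are not paired in them. In none of the 6 comparisons did a member pass the threshold in limma, nor did any of the 17661 epithelial or 17839 mesenchymal probe sets (0%). At an unadjusted p under 0.05 the epithelial comparisons held 1, 1 and 2 of 48 members, against 1.72%, 2.38% and 2.74% of all probe sets, and the mesenchymal comparisons 0 of 49 members each, against 0.437%, 1.13% and 1.23%. The median differences of the members lay between -0.06 and 0.10. The members named next have the smallest p in each direction and are given as values; their adjusted p was 1.

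**Figure D4:**
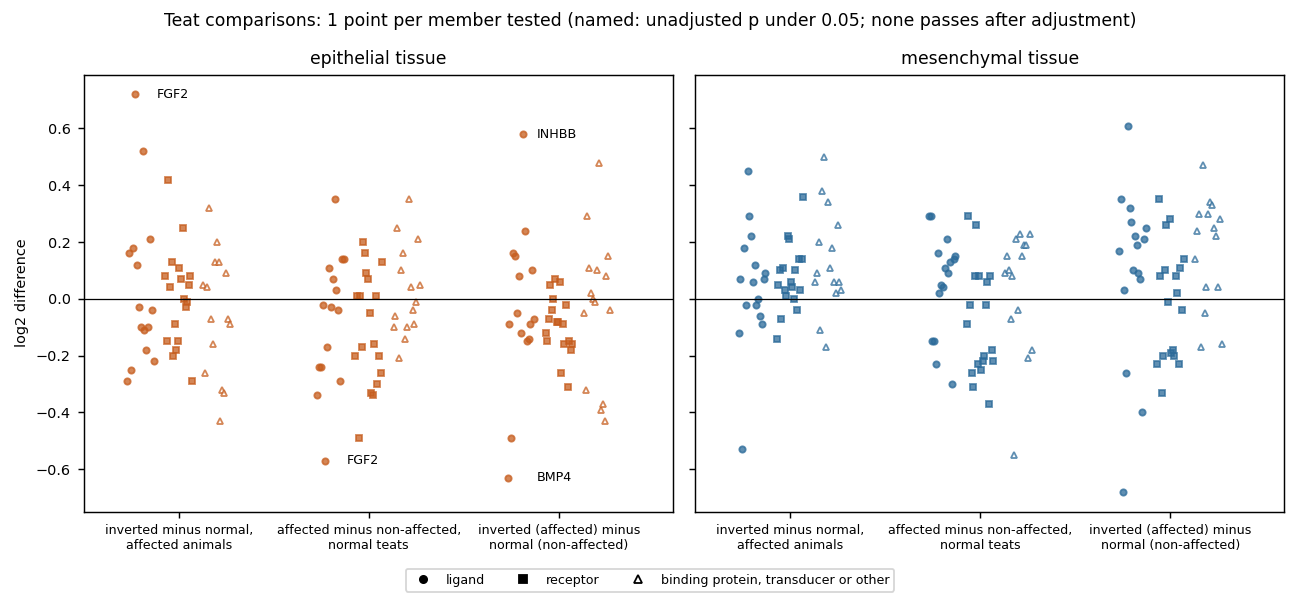
Log2 difference of each member tested in the 3 teat comparisons of epithelial (left, 48 members) and mesenchymal tissue (right, 49 members); filled circles are ligands, squares receptors and open triangles the rest. FGF2, INHBB and BMP4 are the members with an unadjusted p under 0.05, and no point exceeds 0.72 or falls below -0.68.

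In epithelial tissue the smallest p was that of FGF2, a growth factor of fibroblasts and endothelium. FGF2 was at 3.32, 4.44, 3.83, 4.22 and 4.41 in the normal teats of animals 963, 964, 1037, 1059 and 1103 and at 4.46, 4.33, 4.73, 5.04 and 5.25 in their inverted teats. It was higher in the inverted teat of 4 of 5 animals, by 0.72 ± 0.26. In the normal teats of the non-affected animals it was at 5.00, 4.24, 4.23, 5.16 and 4.42, so the affected normal teats were lower than these (-0.57 ± 0.26), and the inverted teats lay within the range of the non-affected animals except for the value of 5.25. The probe set of FGF2 exceeded the array's 30th percentile on 2, 0 and 3 of 5 arrays of these groups, just enough to be tested, and on 11 of all 30 arrays. FGF2 had an unadjusted p under 0.05 in both comparisons, but it entered the fit through the groups in which it was higher. Without the inverted-teat array of animal 1103 it fell below the filter and was not tested. All of these values are near the lower end of the scale.

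INHBB was higher in the inverted teat in 5 of 5 animals. Its probe set exceeded the percentile mark of the filter on 2 of 5 non-affected, 2 of 5 affected normal and 4 of 5 inverted epithelial arrays. Most of its levels in normal teats were thus not above that mark. Like FGF2, INHBB therefore entered the fit through the group in which it was higher. It was at 5.04, 4.27, 4.94, 4.18 and 4.30 in the normal and at 5.55, 5.46, 4.98, 4.31 and 5.00 in the inverted teats, a difference of 0.52 ± 0.27. Against the non-affected animals, at 4.91, 3.93, 4.99, 4.49 and 4.08, the inverted teats differed by 0.58 ± 0.27, an unadjusted p under 0.05 with overlapping values. The difference within a pig ranged from 0.04 in animal 1037 to 1.19 in animal 964. Without the inverted-teat array of animal 1103 these differences were 0.53 and 0.6. With the animal as a random replicate block in limma, INHBB had an unadjusted p of 0.024 between inverted and normal teats, and FGF2 one of 0.0023. Neither passed after adjustment (adjusted p = 0.84 for both).

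ACVR2A, a type II activin receptor, had a lower mean in normal teats of affected than of non-affected pigs (-0.49 ± 0.26) and higher in inverted than in normal teats (0.42 ± 0.26), with a rise of 1.44 in animal 1103 and a fall in animal 1059. The smallest p for lower values in inverted teats were those of WNT10B (-0.22 ± 0.14), EGFR (-0.20 ± 0.15) and SFRP1 (-0.33 ± 0.27). WNT10B was lower in 4 of 5 animals and EGFR in 5 of 5. SFRP1 depended on a single array: it fell from 10.13 to 8.76 in animal 1103, and without the inverted-teat array of that animal the difference was -0.11.

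BMP4 had epithelial means of 6.85 ± 0.37 in non-affected animals, 6.51 ± 0.38 in the normal and 6.22 ± 0.43 in the inverted teats of affected animals (SD, n = 5). Its values in these groups were 6.81, 6.62, 7.42, 6.46 and 6.92, then 6.47, 6.41, 7.12, 6.07 and 6.47, then 6.42, 6.45, 6.65, 6.02 and 5.57. The outer groups differed by -0.63 ± 0.23, an unadjusted p under 0.05 with overlapping values, and by -0.46, no longer under 0.05, without the inverted-teat array of animal 1103. The other members with the smallest p in that comparison were LRP6 (-0.31 ± 0.17), SFRP1 (-0.43 ± 0.27), EGFL7 (0.29 ± 0.22), which is made by endothelium, and IGFBP5 (0.48 ± 0.41). Between the normal teats of affected pigs and those of non-affected pigs they were TGFB1 (0.35 ± 0.24), EGFR (0.20 ± 0.15), EGFL7 (0.25 ± 0.22) and LRP6 (-0.30 ± 0.17). None of these was distinguishable from the spread between pigs.

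The animals were also counted. In epithelial tissue 4 of 48 members, 8.33%, went the same way in all 5 affected animals, against 7.03% of all probe sets; they were INHBB upwards and EGFR, PDGFRL and TGFBR3 downwards, named after their values were seen. In mesenchymal tissue 1 of 49 did, 2.04% against 5.3%: EGFLAM, an extracellular matrix protein of nerve and muscle endings, which was higher in the inverted teat by 0.11 to 0.69.

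**Figure D5:**
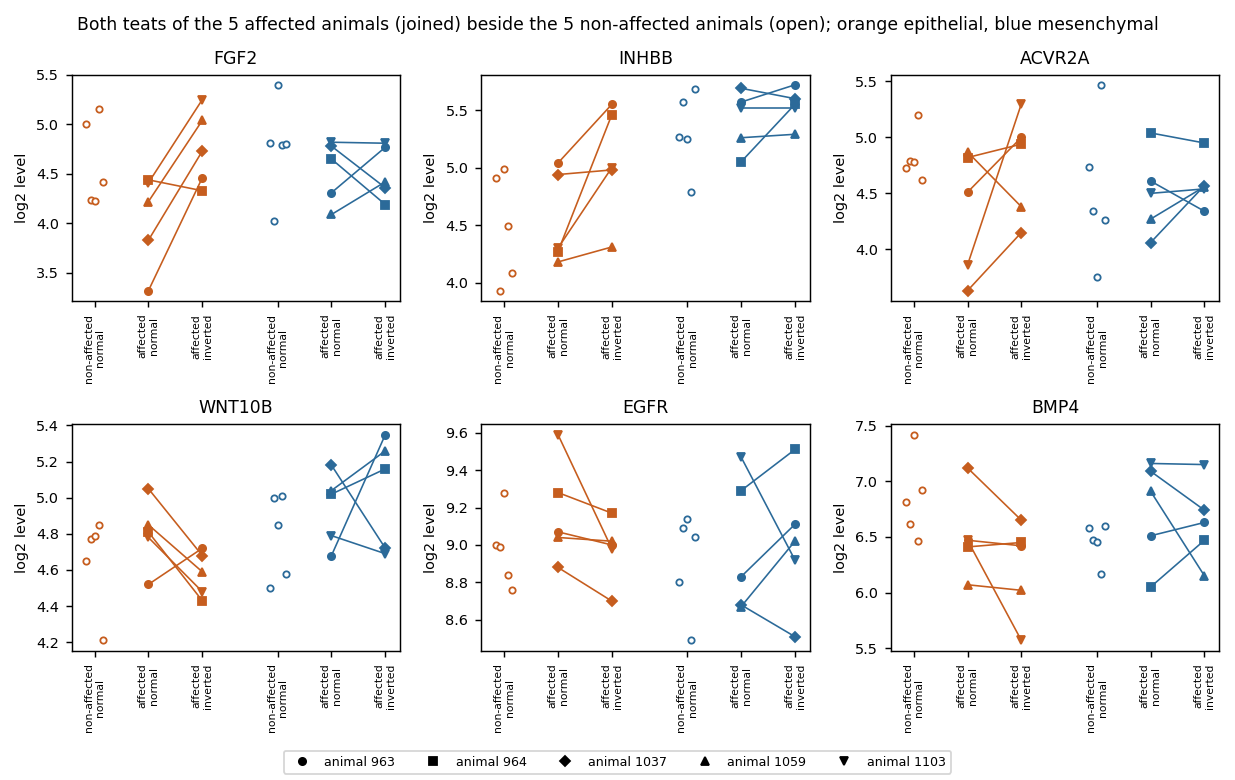
Log2 level of 6 members in normal teats of non-affected animals (open) and in the normal and inverted teats of each affected animal (joined; a symbol per animal), epithelial in orange and mesenchymal in blue. In epithelial tissue INHBB rises in 5 and FGF2 in 4 of 5 animals, while the mesenchymal lines run in both directions in all 6 panels.

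In mesenchymal tissue the differences were smaller compared with their errors. Between inverted and normal teats of affected animals the smallest p were those of SMAD1 (0.26 ± 0.19), FGFBP3 (0.50 ± 0.40), IGF1 (0.29 ± 0.24), IGFBP1 (-0.17 ± 0.22), ACVR1 (-0.14 ± 0.24) and BMP4 (-0.12 ± 0.23). ACVR1 and BMP4 changed sign without animal 1059, to 0.05 and 0.04. Normal teats of affected animals differed from those of non-affected animals by 0.29 ± 0.23 in BMP4 and in BMP7, 0.26 ± 0.26 in FGFR1, -0.37 ± 0.24 in LRP6, -0.26 ± 0.18 in ACVR2B and -0.55 ± 0.40 in FGFBP3. These values do not show a difference, and with 5 animals a group they do not show that there is none.

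Inverted teats and normal teats of non-affected animals gave 0.35 ± 0.23 in BMP7, 0.25 ± 0.18 in WNT10B and 0.47 ± 0.35 in EGFLAM, and -0.33 ± 0.18 in ACVR2B, -0.26 ± 0.24 in FGF2 and -0.40 ± 0.37 in VEGFA. Of these ACVR2B had the smallest p. ACVR2B was at 4.84, 5.46, 5.52, 5.64 and 5.32 in the mesenchyme of non-affected animals and at 5.46, 4.72, 5.07, 5.13 and 4.74 in inverted teats, which overlap.

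An interaction fitted to the 30 arrays tested whether a teat difference is unequal in the tissues (epithelial minus mesenchymal). No member and no probe set passed (0%), and 1 and 0 of 49 members had an unadjusted p under 0.05, against 0.91% and 0.644% of the 18783 probe sets. For inverted against normal teats the smallest p was that of FGF2 (0.74 ± 0.35, unadjusted p under 0.05), whose mesenchymal mean was 4.51 ± 0.27 in inverted and 4.53 ± 0.32 in normal teats. INHBB (0.40 ± 0.33), IGFBP1 (0.30 ± 0.27), TGFBR3 (-0.65 ± 0.41), WNT10B (-0.31 ± 0.22) and FGFBP3 (-0.66 ± 0.50) followed. For affected against non-affected animals these were BMP4 (-0.63 ± 0.33), BMP7 (-0.53 ± 0.31), IGFBP1 (-0.35 ± 0.27), FGFBP3 (0.71 ± 0.50), ACVR2B (0.27 ± 0.25) and FGFR2 (0.32 ± 0.33). A difference of the inverted-teat change between the tissues was therefore not shown for any member.

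Several members varied widely between pigs. The SD of the animal means within a tissue was largest for FGF7 (1.32 over both tissues; 0.87 epithelial and 1.65 mesenchymal), EGF (1.30), IGFBP5 (0.79), FGF18 (0.74) and IGFBP2 (0.73). IGFBP5, an IGF carrier abundant in the regressing mammary gland, was low in both tissues of animal 950, at 8.56 and 8.69, and at 9.43 to 11.41 on all other arrays. IGFBP2 was highest in both tissues of animal 957, at 8.06 and 8.62, against 5.67 to 7.85 elsewhere. In these 2 pigs the deviation was seen in both tissues, whereas the spread of FGF7 and EGF was larger in the mesenchyme. FGF18 exceeded the 30th percentile on 3 of 30 arrays, so its spread is that of a low signal.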

How the data were processed

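Expression had been measured on 30 Affymetrix Porcine Genome Arrays from 500 ng of total RNA each. The authors deposited a table of log2 probe set values (24123 probe sets; range 0 to 20.8; the base was inferred from the range). The submitters' processing notes list GCOS 1.1.1 and PLIER but give no role for either. Array medians ran from 5.71 to 6.04, and the values were used as deposited; depth is not defined for arrays, whose number limits the precision. The members and lists were chosen with earlier results of these data known. Symbols came from the platform table, and the Entrez IDs of all 56 members match RefSeq symbols; no genome or sequence was used.

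Differences were fitted with limma 3.58.1 in R 4.3.3 (lmFit, eBayes), leaving out 124 control probe sets. A probe set was tested if above its array's 30th percentile on at least 5 arrays of the fit. P-values were Benjamini-Hochberg adjusted over all probe sets tested, with a threshold of 0.05. Errors are SD over animals for levels and SE from the fit for differences. Each tissue was fitted apart for the teat comparisons (15 arrays), and interactions used 30. The fits were tested on simulated data.

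Named members are all that passed between tissues in normal teats, the 3 smallest p per direction in every teat comparison and interaction without a call, the 5 highest means among ligands and among receptors, the 5 largest SD of animal means, and in each pathway list the 2 smallest p per direction among genes that passed. The arrays are paired by the animal numbers in the sample descriptions. After removal of group means, arrays of both teats of a pig correlated with r of 0.15 to 0.29 (epithelial) and 0.08 to 0.42 (mesenchymal), and arrays of both tissues with r of -0.01 to 0.51. The animal was a replicate block in an alternative, beside others of scaling, filter, probe sets, breed and animals left out.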

Additional observations from a re-analysis of the deposited data

Results flagged for a closer look

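A single array stood far from the other 4 of its group in 10 of 210 combinations of named member and group, 4.76%, where chance alone gives about 1 in 20. Of these 10 cases, 4 were in animal 1037 and 3 in animal 964, on 2 arrays each. In epithelial inverted teats BMPR1A was at 6.16 in animal 1037 against 6.93 to 7.10 in the others, FGF18 at 3.45 in animal 1037 against 1.86 to 2.29, FGFR2 at 6.35 in animal 964 against 5.71 to 5.85 and VEGFB at 8.80 in animal 964 against 9.23 to 9.38. In epithelial normal teats of affected animals ACVR1 was at 7.24 in animal 964 against 7.66 to 7.78, FGF7 at 0.95 in animal 963 against 3.66 to 4.47, FZD4 at 9.68 in animal 1037 against 9.0 to 9.19 and IGFBP1 at 5.90 in animal 1037 against 5.49 to 5.53. In epithelial normal teats of non-affected animals FGFBP3 was at 5.79 in animal 1058 against 4.59 to 4.73, on an array whose adipocyte mean of 9.93 was the highest of the epithelial arrays. In mesenchymal normal teats of affected animals BMP1 was at 8.96 in animal 1103 against 7.46 to 7.86.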

How the results depend on the processing

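In normal teats the 14 tissue calls became 22 with the animal as a random replicate block and 21 with it as a fixed term. They became 4 (0 higher in epithelial, 4 in mesenchymal tissue) in the 6 Large White x German Landrace animals alone. Calls over all probe sets moved too, from 6122 of 18286 to 8124 and 7805, and to 1059 of 17555 in those 6 animals. Both breed settings were chosen after seeing the data. The 5 members higher in epithelial tissue became 13 after quantile normalization, 8 with arrays centred on the median, a stricter filter, a trended robust prior, breed as a covariate, or without the 4 keratin-rich animals, 11 with the random and 9 with the fixed replicate block. Leaving out each animal gave 10 to 16 calls, 3 to 7 higher in epithelial (3 without animal 1109) and 7 to 9 in mesenchymal tissue. Over all probe sets these fits gave from 4402 calls (without animal 1059) to 6754 (without animal 950). In inverted teats the 4 calls became 0 after quantile normalization, 1 with centred arrays, 1 without the filter and 7 with the random replicate block. They became 0 in the 6 Large White x German Landrace pigs, of which 3 have inverted teats. The 2115 calls over all probe sets became 2, 593, 1090, 3683 and 1 in these settings, in that order. Without each animal 0 to 3 member calls were left (0 without 1037, 1059 or 1103, and 1 without 963), beside 1 to 1490 over all probe sets. No member was called in the 6 teat comparisons and 2 interactions under any of 162 alternatives, the blocks included; the smallest adjusted p was 0.84. Differences without a call changed sign in 4 cases: SFRP1 between inverted and non-affected epithelial teats (0.002 in Large White x German Landrace animals), ACVR1 and BMP4 between mesenchymal teats (-0.25 without animal 964 in both, to 0.05 and 0.04 without animal 1059), and IGFBP1 in the interaction with affection status (0.03 as the mean of its probe sets). The cause of these changes was not tested.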
